A study of Bos taurus with 8 samples.

Results

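FCRLA-positive B cells were the CD83-low B cells of bovine blood whose barcode held mRNA of FCRLA, an Fc receptor-like protein that stays inside B cells, and no mRNA of VPREB3. They were chosen on raw UMI counts, in which each unique molecular identifier (UMI) marks 1 captured mRNA molecule. A member had 200 to 3000 detected genes, at least 1 UMI of MS4A1, at least 2 UMIs over CD79A and CD79B, no UMI of CD3E or CD14, at most 1 UMI of CD83, at least 1 UMI of FCRLA and no UMI of VPREB3. This gave 590 of 30756 barcodes (1.92%), with 220 of 8490 in the no LPS library, 172 of 10429 at 2 h LPS, 139 of 7977 at 4 h LPS and 59 of 3860 at 8 h LPS. The rule reads the same mRNA counts that are described here, so levels of its genes, and differences between these cells and other B cells, are a description and carry no test.

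The blood came from 4 lactating Holstein cows of 2 years, and was mixed into a single pool before it was divided. 1 division received no LPS and the others received 2 µg/ml LPS, the outer-membrane lipopolysaccharide of Gram-negative bacteria, for 2 h, 4 h or 8 h. Mononuclear cells were isolated after the exposure, and each division gave 1 scRNA-seq library and 1 scATAC-seq library. LPS therefore met the B cells in whole blood, among all other blood cells, and how long the division without LPS was incubated is not given in the sources used here. With 1 library per condition there is no replicate check on any difference between conditions, and effects of the library, of LPS and of incubation cannot be told apart.

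FCRLA belongs to the Fc receptor-like family but is retained within the cell, and is expressed almost exclusively in the B lineage. PLD4 is an endosomal nuclease that limits sensing of nucleic acids, ZBTB32 is a transcriptional repressor of lymphocytes, LMO2 is a transcription cofactor found in blood progenitors and B cells, and MS4A1 encodes CD20. LPS is sensed by TLR4, which signals to NF-kB and to type I interferon genes, and interferon released by one cell raises interferon-stimulated genes in its neighbours.

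Within the gene limits the libraries held 7866, 9906, 7431 and 3438 barcodes (no LPS, 2 h, 4 h and 8 h, the order used throughout) and 38543370, 47916439, 40201884 and 16679535 UMIs. Between 8 and 24 barcode sequences were shared by any pair of libraries, 93 over all pairs, and none of them was an FCRLA-positive B cell in both.

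FCRLA-positive cells made up 220 of 1073 without LPS (20.5%, exact Clopper-Pearson 95% interval 18.1% to 23.0%), 172 of 698 at 2 h (24.6%, interval 21.5% to 28.0%), 139 of 558 at 4 h (24.9%, interval 21.4% to 28.7%) and 59 of 213 at 8 h (27.7%, 21.8% to 34.2%). The intervals of neighbouring times overlapped, and all intervals here cover counting error only. The shares rest on detection, since with every cell thinned to 1500 UMIs they were 15.7%, 14.9%, 13.1% and 17.3%, and with at least 2 FCRLA UMIs asked for they were 11.8%, 13.2%, 17.03% and 14.6%. The rest of the CD83-low B cells held VPREB3 and no FCRLA (654 cells, called VPREB3-positive), both mRNAs (721) or neither (577). As a share of all barcodes within the gene limits the FCRLA-positive cells went from 2.80% without LPS to 1.74%, 1.87% and 1.72%, while CD83-low B cells of every kind went from 13.6% to 7.05%, 7.51% and 6.20%.

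The limit on CD83, an activation marker that LPS raises in B cells, removed B cells mainly from the LPS libraries. With FCRLA and no VPREB3 at any CD83 level there were 237, 277, 195 and 83 cells, of which 7.17% (4.23% to 11.2%), 37.9% (32.2% to 43.9%), 28.7% (22.5% to 35.6%) and 28.9% (19.5% to 39.9%) had 2 or more CD83 UMIs. The same share among VPREB3-positive FCRLA-negative cells was 15.6% (12.01% to 19.7%), 67.6% (63.3% to 71.7%), 56.7% (51.0% to 62.2%) and 45.8% (34.8% to 57.1%). The share with 2 or more CD83 UMIs was thus lower in the FCRLA-positive cells in every library, with intervals that did not overlap in the first 3 libraries and did at 8 h. The members described here are therefore the CD83-low remainder of this population after LPS.

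**Figure D1:**
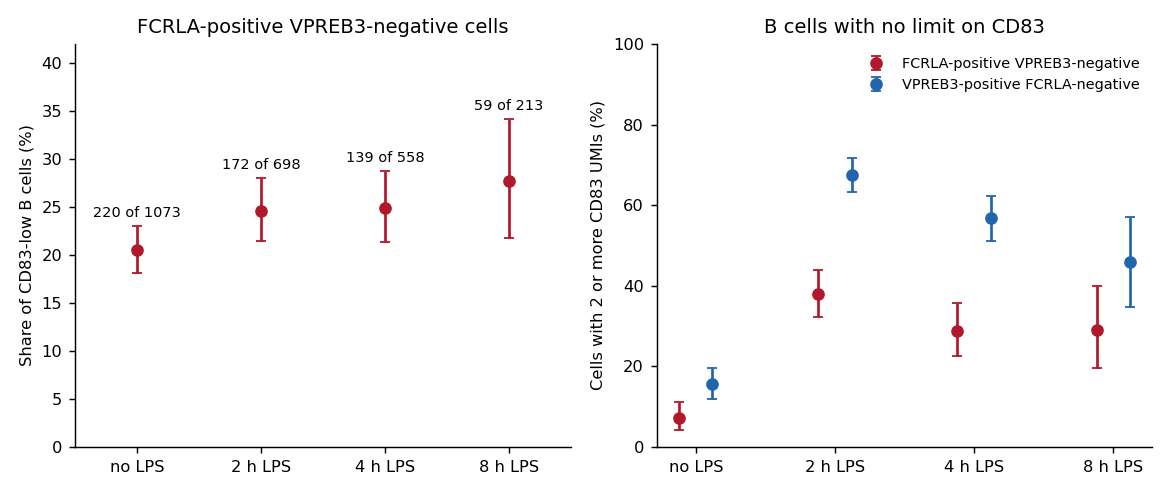
Left, FCRLA-positive VPREB3-negative cells as a percent of CD83-low B cells in each library, with the cell counts beside the points. Right, percent of B cells with 2 or more CD83 UMIs among FCRLA-positive VPREB3-negative cells (red) and VPREB3-positive FCRLA-negative cells (blue) when CD83 was not limited. Points are shares and bars exact 95% intervals for counting error. The left shares lie between 20.5% and 27.7%, and the blue points at right lie above the red ones in each library.

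At the edges of the rule, 93, 80, 44 and 28 members had exactly 1 FCRLA UMI, and the highest member had 9, 9, 10 and 10. CD83 stood at 1 UMI in 20, 34, 28 and 13 members, and 2, 19, 7 and 7 cells that met all else stood just outside at 2 UMIs. With VPREB3 at exactly 1 UMI, 96, 51, 51 and 17 FCRLA-positive cells were left out, and 8, 7, 10 and 5 cells were left out for more than 3000 genes. Detection of FCRLA itself rested on depth. It was found in 52.4%, 48.1%, 52.7% and 55.9% of all CD83-low B cells as counted and in 26.4%, 26.1%, 29.1% and 21.5% after each cell was thinned to 1500 UMIs. In T cells, which should lack it, the shares were 0.556%, 0.255%, 0.215% and 0.992% as counted and 0.293%, 0.0672%, 0.0841% and 0.457% after thinning, at median depths of 4070, 4084.5, 4760 and 5250 UMIs against 4026, 3938, 4486.5 and 5585 in the CD83-low B cells. FCRLA in B cells thus stood far above the free-RNA level.

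Presence of FCRLA did not separate cells by VPREB3. After thinning, VPREB3 was found in 36.7% of FCRLA-positive and 44.3% of FCRLA-negative CD83-low B cells without LPS, in 35.9% and 28.7% at 2 h, in 27.8% and 34.4% at 4 h and in 33.3% and 28.7% at 8 h. The share was lower in FCRLA-positive cells in 2 libraries and higher in the other two.

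The cells carried the genes of their label in all 4 libraries. PLD4 stood at 312, 357, 222 and 198 CPM (UMIs of a gene over all UMIs of a group of cells, scaled to 1e6) in FCRLA-positive cells and at 79.5, 81.2, 79.0 and 59.3 CPM in VPREB3-positive cells of the same libraries. ZBTB32 stood at 315, 324, 213 and 179 CPM against 62.9, 85.4, 24.3 and 38.1 CPM. LMO2 stood at 435, 534, 419 and 333 CPM against 273, 236, 231 and 191 CPM. Every FCRLA-positive value of these genes lay above every VPREB3-positive value, and T cells had at most 2.92 CPM of any of them. LMO2 differed less, with log2 ratios of 0.66, 1.16, 0.85 and 0.79 (ratios here add 5 CPM to both sides), so it passed 2-fold only at 2 h.

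Cell by cell the label was not uniform. After thinning to 1500 UMIs, at least 1 of PLD4, ZBTB32 and LMO2 was seen in 74.1%, 81.3%, 62.6% and 55.2% of FCRLA-positive cells, against 39.7%, 37.8%, 34.6% and 26.7% of VPREB3-positive cells. In cells with both FCRLA and VPREB3 it was 61.6%, 58.5%, 61.3% and 56.7%, and in cells with neither it was 56.1%, 56.2%, 34.6% and 23.9%. Without LPS and at 2 h the cells with both mRNAs therefore stood below the FCRLA-positive cells and within the counting error of the cells with neither. At 4 h and 8 h they stood within the counting error of the FCRLA-positive cells.

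FCRLA-positive cells were deeper and richer in genes than VPREB3-positive cells. Their median UMI count was 4308, 4151.5, 4917 and 6980 against 3258, 3354.5, 3656 and 4725. At the same depth of 1500 UMIs they still showed 777, 817, 780 and 756 genes against 701, 711.5, 717 and 691. Their median mitochondrial share was also higher, at 2.80%, 2.76%, 2.66% and 2.72% against 1.92%, 2.01%, 1.95% and 2.09%. The part of depth and of mitochondrial share in the gene differences that follow was not tested.

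Genes were called different between FCRLA-positive and VPREB3-positive cells when they had at least 50 UMIs over the pair in each library and passed 2-fold the same way in all 4. Of 1824 genes counted, 32 were higher (1.75%), FCRLA among them, and 6 were lower (0.329%), with VPREB3 and 1 gene that has no symbol among them. The median log2 ratio over all genes counted was 0.13, 0.18, 0.16 and 0.12.

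After FCRLA itself, the called gene with the largest ratio was CMTM3, a transmembrane protein of the chemokine-like factor family. It stood at 1336, 1455, 1003 and 813 CPM in FCRLA-positive cells and at 133, 137, 103 and 84.8 CPM in VPREB3-positive cells, the latter close to the 85.8, 77.8, 72.3 and 79.8 CPM of T cells. The log2 ratio was 3.28 (interval of the plain ratio 3.09 to 3.57), 3.36 (3.11 to 3.73), 3.22 (2.92 to 3.66) and 3.19 (2.61 to 3.99). Cells with both FCRLA and VPREB3 had 479, 516, 499.9 and 489 CPM and cells with neither 382, 514, 210.4 and 153 CPM, so both lay between. At 1500 UMIs a cell, CMTM3 was seen in 63.2%, 70.8%, 56.8% and 44.8% of FCRLA-positive cells, in 14.1%, 14.6%, 9.56% and 13.3% of VPREB3-positive cells, and in 11.7%, 11.1%, 10.4% and 11.3% of T cells.

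HOPX, a small homeodomain cofactor that does not itself bind DNA, stood at 309, 357, 259 and 170.0 CPM against 37.2, 28.5, 28.9 and 21.2 CPM. CD55, which protects cells from complement, stood at 252, 215, 146 and 122 CPM against 38.9, 47.0, 27.3 and 25.4 CPM. BATF, an AP-1 family transcription factor, stood at 376, 589, 454 and 324 CPM against 74.5, 168, 122 and 76.3 CPM. For these genes no value of one group reached the range of the other, and the log2 ratios ran from 2.74 to 3.44 for HOPX, from 2.06 to 2.55 for CD55 and from 1.78 to 2.26 for BATF.

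Among the other genes higher in FCRLA-positive cells were LY86, the secreted partner of the Toll-like receptor relative CD180 (log2 1.44 to 1.55 over the libraries), ITGB2, the shared beta chain of the leukocyte integrins (1.49 to 2.60), and PKIB, an inhibitor of protein kinase A (1.62 to 2.09). COTL1, which binds actin filaments, differed by 1.39 to 1.81 and CMTM7, a relative of CMTM3, by 1.38 to 1.96. DTNBP1, a part of the machinery that forms lysosome-related organelles, differed by 1.56 to 1.95, the sialyltransferase ST6GALNAC2 by 1.40 to 1.74, the glycogen primer GYG1 by 1.38 to 1.85 and the thioredoxin reductase TXNRD1 by 1.33 to 1.52. In summed CPM all of these were highest in FCRLA-positive cells in each library when set beside the cells with both mRNAs and the cells with neither, whereas by thinned cells TXNRD1 at 8 h was seen in 12.1% of FCRLA-positive cells and in 13.0% of cells with neither.

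In the other direction, RETREG1, a receptor for selective breakdown of endoplasmic reticulum, stood at 51.6, 27.5, 36.8 and 25.3 CPM in FCRLA-positive cells against 268, 224, 214 and 208 CPM. ID3, which blocks the E protein transcription factors of lymphocytes, stood at 67.0, 52.5, 31.9 and 73.5 CPM against 192, 164, 179 and 203 CPM. GGT5, a gamma-glutamyltransferase (log2 -1.68 to -1.13), and ZNRF1, a ubiquitin ligase (-1.51 to -1.26), were the other named genes below. With no upper limit on genes a cell, RETREG1 was still called (smallest log2 ratio of the 4 libraries -1.87) and ID3 (-0.12), GGT5 (-0.88) and ZNRF1 (-0.36) were not. Among the higher genes named here COTL1 lost its call in the same way (0.97). After thinning GGT5 was seen in 4.09%, 5.85%, 7.91% and 6.90% of FCRLA-positive cells against 14.8%, 18.9%, 11.03% and 2.22% of VPREB3-positive cells, the reverse order at 8 h, where 4 of 58 and 1 of 45 cells held it. RETREG1 was seen in 5.45%, 2.92%, 5.76% and 3.45% of FCRLA-positive cells against 35.1%, 31.1%, 30.1% and 24.4% of VPREB3-positive cells, and it was no more frequent in the FCRLA-positive cells than in T cells, where the share was 11.9%, 11.3%, 13.1% and 12.5%.

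**Figure D2:**
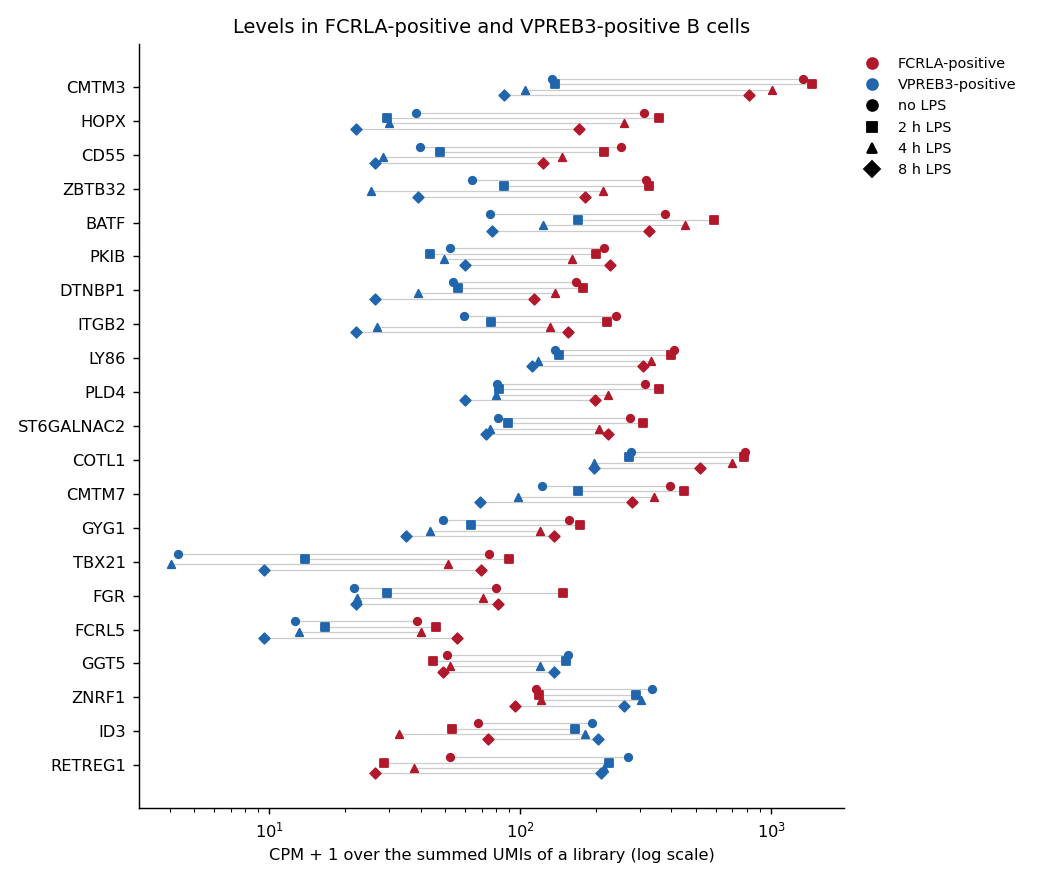
Level of 21 genes (rows) in FCRLA-positive (red) and VPREB3-positive (blue) B cells, as CPM + 1 over the summed UMIs of a library on a log axis. Marker shapes give the library and grey lines join the 2 groups of the same library. Red points lie to the right for CMTM3 through FCRL5 and to the left for GGT5, ZNRF1, ID3 and RETREG1, without overlap within any gene.

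Of 12 counted B cell identity genes outside the rule, 0 passed 2-fold in all 4 libraries in either direction (medians 0.10, 0.17, 0.36 and -0.07), where 2.08% of all genes did, so the counts of 0 in this and the following lists are near what all genes show. Of 16 counted genes of B cell receptor signalling 0 were called, though their medians of 0.45, 0.42, 0.45 and 0.25 lay above those of all genes. Of 4 counted genes of Toll-like receptor and endosomal sensing, LY86 and PLD4 were higher. NF-kB targets and activation genes had 0 of 15 called and medians of -0.48, -0.40, -0.45 and -0.58, and the 13 counted antigen presentation genes and 19 interferon-stimulated genes also had 0 called.

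Genes with fewer UMIs were reached by a minimum of 20 UMIs per library, under which 66 of 3965 genes were higher (1.66%) and 13 lower (0.328%). Of 8 counted genes on a list of memory and atypical B cell genes, 3 were higher. TBX21, the transcription factor T-bet, had 86, 71, 41 and 30 UMIs in FCRLA-positive cells (73.9, 88.7, 50.3 and 68.9 CPM) against 4, 9, 2 and 2 UMIs (3.31, 12.8, 3.04 and 8.48 CPM). It was found in 26.8%, 31.4%, 21.6% and 33.9% of FCRLA-positive cells, and T cells had 4.60, 4.25, 4.60 and 4.11 CPM. The Src-family kinase FGR stood at 79.1, 147, 69.9 and 80.4 CPM against 20.7, 28.5, 21.3 and 21.2 CPM, and FCRL5, a surface relative of FCRLA, at 37.8, 45.0, 39.2 and 55.1 CPM against 11.6, 15.7, 12.2 and 8.48 CPM. The groups were apart in every library for these 3 genes, while the low UMI counts of the VPREB3-positive cells leave the size of the TBX21 ratio open over a wide interval, from 3.07 to 6.39 on the log2 scale without LPS and from 1.05 to 6.13 at 8 h.

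FCGR2B, the inhibitory receptor for IgG on B cells, was the 1 of 21 counted receptor signalling genes that was higher, at 88.5, 86.2, 56.4 and 80.4 CPM against 22.3, 15.7, 13.7 and 21.2 CPM. In the RefSeq order of the ARS-UCD2.0 assembly it is the direct neighbour of FCRLA, with FCRLB on the other side. FCRLB had 0, 0, 2 and 0 UMIs. Genes of this Fc receptor family resemble each other, and how reads shared between relatives were counted is not given in the sources used here.

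CD5, a surface protein of T cells and of some B cells, stood at 72.2, 96.2, 38.0 and 48.3 CPM in FCRLA-positive cells against 13.2, 8.54, 7.59 and 16.95 CPM in VPREB3-positive cells. It was the only T cell marker with enough UMIs to be counted. All 13 T cell markers together summed to 97.1, 120.0, 67.4 and 62.0 CPM in FCRLA-positive cells, with CD3E at 0 by the rule and CD6, CD4 and CD8B at 0 in the libraries at 2 h, 4 h and 8 h, and to 44.7, 68.3, 33.4 and 42.4 CPM in VPREB3-positive cells.

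Of 8 counted naive or resting B cell genes none was lower in all 4 libraries and KLF3, a zinc finger transcription factor, was higher at 89.4, 99.98, 56.4 and 52.9 CPM against 38.1, 42.7, 16.7 and 16.95 CPM, opposite to the rest of its list. The median of that list was -0.58, -0.87, -0.63 and -1.02. CXCR4, a chemokine receptor that retains lymphocytes in bone marrow, stood at 375, 301, 493 and 448 CPM against 931, 658, 908 and 721 CPM, and FCER2, the low-affinity IgE receptor CD23, at 28.4, 16.2, 52.7 and 25.3 CPM against 56.3, 103, 109 and 67.8 CPM. Both were below the VPREB3-positive level in each library without passing 2-fold in all 4.

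Marker genes of other cells, apart from the dendritic cell and plasma cell lists, were low in FCRLA-positive cells. The 12 monocyte markers summed to 98.9, 112, 47.8 and 91.9 CPM against 96.8, 47.0, 53.2 and 131 CPM in VPREB3-positive cells, with 10, 6, 6 and 7 of the 12 detected and CD14, by the rule, at 0 in all libraries. The 9 listed NK cell markers summed to 43.8, 71.2, 56.4 and 41.4 CPM, the 10 neutrophil markers to 6.88, 16.2, 3.68 and 4.60 CPM, and the 8 listed platelet and erythrocyte markers to 55.0, 41.2, 26.98 and 39.1 CPM. The 11 listed dendritic cell markers summed to 805, 989, 779 and 620 CPM against 352, 481, 358 and 326 CPM, but this list holds PLD4, TCF4, IRF8 and SPIB, which B cells also express, and its defining members FLT3, CLEC9A, XCR1, CD1B and ZBTB46 were at 0. The 14 plasma cell genes summed to 1582, 1201, 1425 and 1503 CPM against 2493, 3113, 4666 and 1725 CPM. They summed to 2114, 2041, 2044 and 1991 CPM in T cells and to 1283, 1151, 1167 and 911 CPM in monocytes. Without LPS, SSR4 alone held 1163 of the 1841 UMIs of this list in FCRLA-positive cells. The sum therefore does not measure plasma cell content.

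For the response to LPS the UMIs of all FCRLA-positive cells of a library were summed, giving 1163356, 800177, 815472 and 435189 UMIs, and each gene with at least 50 UMIs over the 2 libraries was compared with no LPS. At 2 h, 53 of 4411 genes rose past 2-fold (1.2%) and 7 fell (0.159%), which is 1.36% in either direction. At 4 h, 87 of 4354 rose (2%) and 25 fell (0.574%), which is 2.57% in either direction, and at 8 h, 61 of 3841 rose (1.59%) and 74 fell (1.93%), which is 3.51%. The median log2 ratio of all genes was 0.11, 0.02 and -0.01, and scaling by edgeR's TMM factors or DESeq2's size factors moved the 2 h median to -0.01 and 0.00 (rounded) and the split there to 40 higher and 12 lower. All 3 comparisons use the same no LPS cells. The highest cell of each gene was also left out of each library, which was tried after the values were known. Of the rises, 46 of 53, 77 of 87 and 37 of 61 then still passed 2-fold at 2 h, 4 h and 8 h. Of the falls, 4 of 7, 20 of 25 and 74 of 74 did. This step moved the 8 h median of all genes to -0.10. For each gene it takes 1 of 59 members at 8 h but 1 of 220 without LPS, and totals were not reduced. It thus lowers 8 h ratios by itself, and the number of genes fallen at 8 h went from 74 to 122. For that reason it cannot show whether 8 h rises rested on single cells more often than those at 2 h and 4 h.

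At 4 h many interferon-stimulated genes rose. Of 37 counted genes of this list 32 rose, 0 fell and the median log2 ratio was 2.04, against 2% of all genes that rose. For the same 37 genes the median was 1.70 in VPREB3-positive cells, 1.81 in CD83-high B cells and 1.36 in T cells. At 2 h the list had 26 counted genes, of which ISG15, OAS1X and EIF2AK2 rose (median 0.42), and at 8 h it had 23, of which ISG15, ISG20, STAT2, ZBP1 and CXCL10 rose (median 0.59). Some members were counted at 4 h only because they were high there. Over the 23 genes of the list counted at all 3 times the medians were 0.36, 1.59 and 0.59, with 2, 18 and 5 genes risen, so the median was still highest at 4 h. Whether the rise differed between the groups of cells was not tested.

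ISG15, a ubiquitin-like protein that is conjugated to other proteins during the interferon response, had 195, 512, 2986 and 190 UMIs in FCRLA-positive cells, or 168, 639.9, 3662 and 437 CPM. Its log2 ratio to no LPS was 1.90 at 2 h (interval 1.69 to 2.18), it was 4.41 at 4 h (interval 4.24 to 4.67), and at 8 h it stood at 1.36 (interval 1.09 to 1.68). It was found in 24.5%, 46.5%, 87.1% and 69.5% of the cells, with a median of 0, 0, 9 and 2 UMIs a cell and a highest cell of 33, 70, 122 and 29. At 1500 UMIs a cell it was seen in 14.1%, 26.9%, 76.3% and 32.8% of FCRLA-positive cells, in 11.5%, 23.2%, 55.1% and 33.3% of VPREB3-positive cells and in 6.51%, 16.7%, 41.8% and 15.9% of T cells. The 4 h rise was thus spread over most FCRLA-positive cells and did not come from a few.

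MX2, an interferon-induced GTPase that acts against viruses, had 227, 221, 958 and 103 UMIs (195, 276, 1175 and 237 CPM) and a 4 h log2 ratio of 2.56 (2.38 to 2.81). Its relative MX1 stood at 166, 214, 792 and 269 CPM (4 h 2.22). IFIT1 and IFIT2, which bind foreign RNA, had 11 and 10 UMIs without LPS and 140 each at 4 h, with log2 ratios of 3.61 and 3.70. DDX58, the RNA sensor RIG-I, rose by 2.95, IFIH1, the sensor MDA5, by 2.37, and the transcription factor IRF7 by 2.30 on the log2 scale. OAS1X, OAS1Y and OAS1Z, which make the second messenger that activates RNase L, rose by 1.99, 2.83 and 1.91, with the caution that these gene copies are similar enough to share reads. IRF9, SP110, TRIM25 and LGALS3BP were among the genes of the list that stayed under 2-fold at 4 h, at 0.41, 0.23, 0.96 and 0.97.

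**Figure D3:**
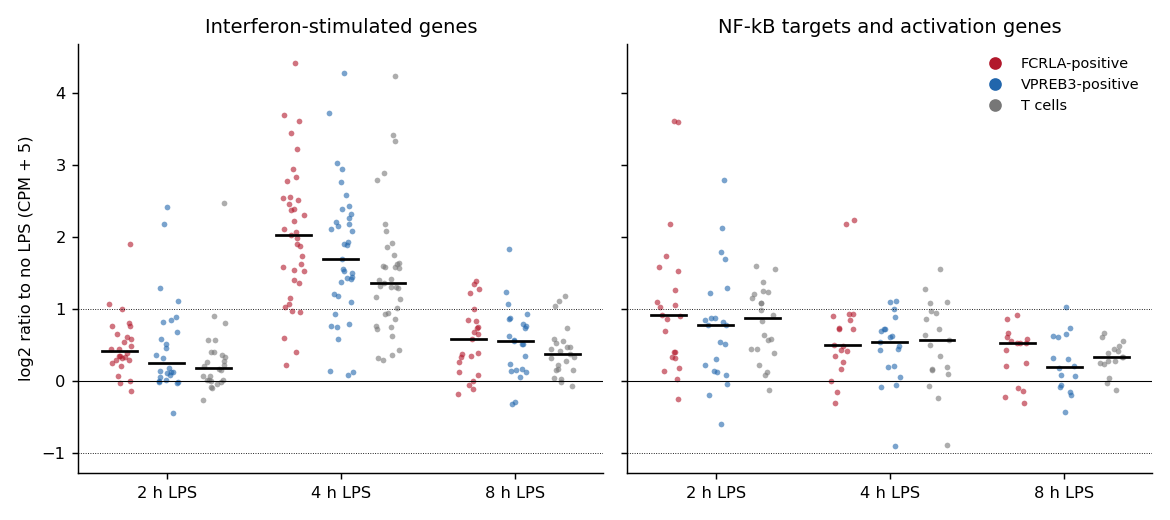
Log2 ratio to no LPS, with 5 CPM added, for each counted gene of the interferon-stimulated list (left) and of the NF-kB list (right) in FCRLA-positive B cells (red), VPREB3-positive B cells (blue) and T cells (grey). Each point is a gene, the thick bars are medians, and dotted lines mark 2-fold. In FCRLA-positive cells the interferon median is 0.42, 2.04 and 0.59 and the NF-kB median 0.92, 0.51 and 0.53 at 2 h, 4 h and 8 h.

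Of 22 counted NF-kB targets and activation genes 10 rose at 2 h and 0 fell (median 0.92), against 1.2% of all genes. Without 12 barcodes that are described further on, 4 of 20 rose and the median was 0.52. With all members, the medians of the same genes were 0.78 in VPREB3-positive cells, 1.22 in CD83-high B cells and 0.87 in T cells. NFKBIA, the inhibitor that NF-kB induces against itself, stood at 266, 811, 449 and 411 CPM (2 h log2 1.59, 1.41 to 1.81). The costimulatory receptor CD40 stood at 41.3, 129, 83.4 and 64.3 CPM (1.53, 1.13 to 2.17) and the subunit NFKB2 at 65.3, 165, 112 and 96.5 CPM (1.27, 0.92 to 1.76). These genes were highest at 2 h and stayed above no LPS later, though no longer past 2-fold. At 4 h only CCL3 and CCL4 of 19 counted genes passed 2-fold (median 0.51), and at 8 h 0 of 16 did (median 0.53).

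The genes with the largest 2 h ratios were of another kind. PTX3, a secreted pattern recognition protein, had 15, 499, 80 and 137 UMIs (2 h log2 5.13), the receptor GPR84 8, 118, 15 and 4 (3.68), the activation marker CD69 9, 120, 15 and 4 (3.60) and the chemokine CCL3 34, 328, 128 and 15 (3.60). The neutrophil-attracting chemokines CXCL8, GRO1, CXCL2 and CXCL3 rose by 2.63, 2.79, 2.37 and 2.93, PLEK, a substrate of protein kinase C, by 2.29 and CCL4 by 2.18. In the reference group of monocytes from the same libraries PTX3 went from 3459 to 14805 CPM between no LPS and 2 h, and CXCL8 from 8828 to 21383 CPM. GRO1, CXCL2 and CXCL3 are close copies whose reads may be shared.

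These UMIs lay in few barcodes. Summed over the 10 genes, members with at least 50 UMIs numbered 4, 5, 2 and 1, which is 12 of 590, and held 528 of 1045 UMIs (50.5%), 4722 of 5202 (90.8%), 630 of 854 (73.8%) and 965 of 1133 (85.2%). Their own sums ran from 70 to 202, from 510 to 1301 and from 253 to 377, with 965 in the cell at 8 h, while the next highest members had 8, 13, 6 and 7. The 12 barcodes held 40, 44, 14 and 7 UMIs of MS4A1, a gene of the rule, and 34, 162, 8 and 27 UMIs of the cytokine IL1B. Of the monocyte genes outside the rule, only CSF1R, LYZ and CD68 were looked at in them. CSF1R and LYZ had no UMI and CD68 had 7, 1, 0 and 0. Without the 12 barcodes S100A9, another monocyte marker, had too few UMIs to be counted at 2 h. Among VPREB3-positive cells, 5 of 654 barcodes reached 50 UMIs, at 2 h and 4 h. The bulk of FCRLA-positive cells held 239, 287, 164 and 290 of these UMIs per 100 cells. What these barcodes are was not tested.

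**Figure D4:**
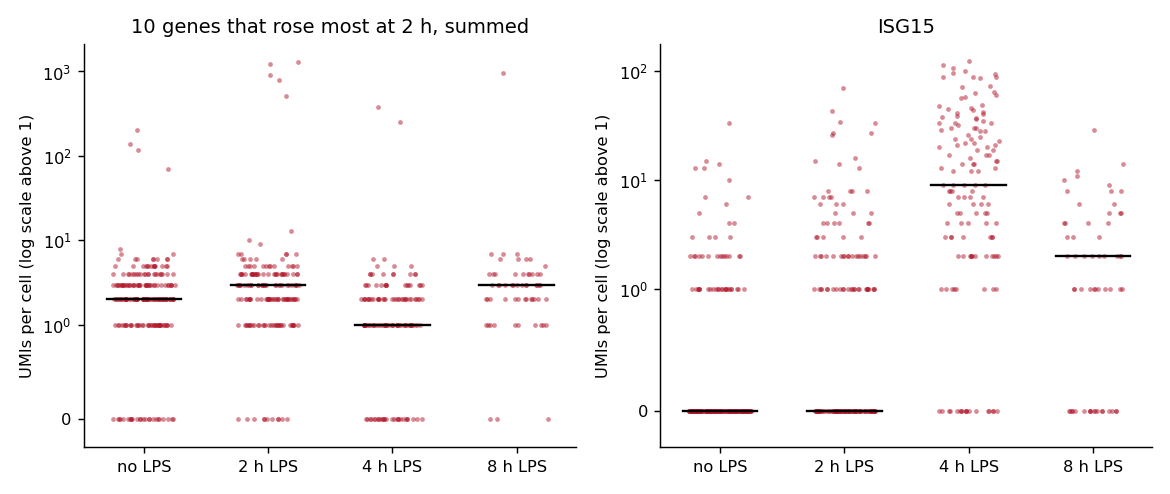
UMIs per FCRLA-positive B cell (1 point each) summed over the 10 genes with the largest 2 h rises (left) and of ISG15 (right), on an axis that is linear below 1 and log above. Black bars are medians. At left all but 12 cells lie at 13 UMIs or fewer, and the rest lie between 70 and 1301. At right the 4 h cells have a median of 9 and the other libraries medians of 0, 0 and 2.

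With those 12 barcodes left out, which was decided once their values were known, 24 genes rose at 2 h (22 of them among the 53), 81 at 4 h (77 of 87) and 51 at 8 h (48 of 61). CXCL8 then rose by 1.11 at 2 h, while GRO1, CXCL2, CXCL3, CCL3, CCL4 and PLEK stood at 0.30, -0.07, 0.38, 0.72, 0.50 and 0.80, and PTX3, GPR84 and CD69 had too few UMIs to be counted. The NF-kB median at 2 h was 0.52 over 20 genes, with 4 genes past 2-fold, namely NFKBIA (1.19), CD40 (1.51), NFKB2 (1.101) and CD83, whose level the rule limits. The interferon median at 4 h was 2.10 with 32 of 37 genes risen, and ISG15 stood at 1.73, 4.40 and 1.15. Of the 10 genes CXCL8 alone was thus still called at 2 h without the 12 barcodes, the NF-kB list kept 4 of its 10 calls, and the interferon rise was as large.

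Most other lists had few called genes, as had all genes counted, of which 1.36%, 2.57% and 3.51% were called at 2 h, 4 h and 8 h, and counts of 0 in lists this short do not set a list apart from that. Naive or resting genes had 0 of 7, 0 of 9 and 2 of 7 fallen and plasma cell genes 1 of 8, 1 of 8 and 2 of 7. Memory and atypical genes had 1 of 11, 1 of 12 and 2 of 11 fallen. Of all genes 0.159%, 0.574% and 1.93% fell, and the difference was not tested. Of the marker genes outside the rule, PLD4 had log2 ratios of 0.19, -0.48 and -0.65, ZBTB32 of 0.04, -0.55 and -0.80, and LMO2 of 0.29, -0.05 and -0.38. Genes of B cell receptor signalling had 0 of 21 at each time and Toll-like receptor and endosomal sensing genes 0 of 9, 0 of 10 and 0 of 7. TLR4 itself had 2, 6, 1 and 0 UMIs in all FCRLA-positive cells, so its level was not measurable at this depth, and the 0 at 8 h allows up to 3 UMIs. Of the B cell identity genes CD40 rose and EAF2, a transcription elongation factor, fell at 2 h (73.9 to 31.2 CPM, -1.12), and PAX5, which holds B cell identity, rose at 8 h (24.9, 21.2, 34.3 and 68.9 CPM, 1.305). Germinal centre genes had 0 of 3 called at each time, heat shock and unfolded protein response genes 0 of 15, 0 of 16 and 0 of 15, and cell cycle genes 1 of 4 (CENPF at 2 h, 1.21), 0 of 3 and 0 of 2. Immediate early genes had ATF3 (2.08) and IER3 (1.57) risen among 10 at 2 h, 0 of 9 at 4 h with a median of -0.49, and IER3 (1.88) among 9 at 8 h, but without the 12 barcodes 0 of 7 were called at each time. Antigen presentation genes moved little, with CD40 risen at 2 h and BOLA-DOA (-1.45) fallen at 8 h among 15 counted at each time.

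Falls were most frequent at 8 h, the library with the fewest members. CRIP1, a small LIM-domain protein, stood at 878, 674, 505 and 303 CPM (8 h log2 -1.52, -1.81 to -1.27), against -1.23 in VPREB3-positive cells and -0.44 in T cells. The intermediate filament gene VIM stood at 307, 205, 217 and 78.1 CPM (-1.91), TXNIP, an inhibitor of thioredoxin, at 165, 122, 98.1 and 36.8 CPM (-2.03) and the keratin KRT17 at 103, 152, 65.0 and 16.1 CPM (-2.36). CSRP1, ANXA2, CFD and CDKN2D fell by 1.69, 1.64, 1.59 and 1.37 on the log2 scale. All of these had their lowest level at 8 h. Of the memory and atypical list, the partner of annexin A2, S100A10, fell at each time (-1.18, -1.53 and -1.40), and CD27 rose at 4 h (1.02).

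Rises at 8 h outside the interferon list included IFRD2, named for its likeness to an interferon-related regulator, at 39.5, 36.2, 57.6 and 129 CPM (1.59), the immunophilin FKBP1A at 55.9, 55.0, 76.0 and 140.2 CPM (1.25) and the zinc finger gene ZC3H10 at 86.0, 72.5, 72.4 and 209 CPM (1.24). The 8 h ratio of the fatty acid carrier FABP5 (3.85) came from 1 cell, which held 152 of 159 UMIs.

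CCL2, a chemokine that attracts monocytes, fell at all times, from 169 CPM to 30.0, 7.36 and 46.0 CPM. It went the same way in T cells (249, 38.6, 42.2 and 179 CPM) and in monocytes (36220, 11198, 5853 and 8193 CPM), whose level was above that of the B cells in every library. The part of free RNA in the B cell value was not tested. JCHAIN, which joins IgM and IgA chains, fell from 241 CPM to 63.7, 89.5 and 32.2 CPM, and 113 of its 280 UMIs without LPS lay in 1 cell. IL18BP fell at each time, but 90 of its 96 UMIs without LPS lay in 1 cell. S100A9 was the only monocyte marker counted, and its 2 h rise (1.43) came with 46 of 55 UMIs in 1 cell.

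Open chromatin was measured in nuclei that are not the same cells, and FCRLA status could not be read from them. B cell nuclei were taken as those with counts on at least 3 of 7 B cell genes and, at 2 h and 4 h, none on CD14. CD3E and CD3D, and CD14 in the other libraries, are not analysed here, so nuclei of T cells were not removed by a gene of their own. There were 4 of 3121 without LPS, too few to use, and 743 of 4172, 585 of 3231 and 227 of 3163 at 2 h, 4 h and 8 h. Asking for counts on 3 genes favours deep nuclei. Median counts a nucleus were 9507, 12985 and 9557 in B cell nuclei, against 4404, 4030.5 and 2044 in all other nuclei. The part of this depth difference in the ratios that follow was not tested. At FCRLA they held 38.4, 36.1 and 25.7 CPM, against 17.6, 16.4 and 10.5 CPM in all other nuclei, a ratio of 2.19, 2.20 and 2.45. LMO2 had ratios of 1.89, 1.97 and 1.98, PLD4 of 1.97, 1.84 and 1.56 and CD55 of 1.29, 1.21 and 1.60. ZBTB32 had ratios of 1.14, 1.09 and 1.26, CMTM3 of 0.883, 0.926 and 0.902, HOPX of 0.933, 0.817 and 0.805 and BATF of 0.919, 0.933 and 1.03. For scale, MS4A1, which helped choose the nuclei, had ratios of 2.56, 2.36 and 2.73. Of the genes lower in FCRLA-positive cells, ID3 had ratios of 1.35, 1.27 and 1.45 and RETREG1 of 0.996, 0.942 and 0.904. VPREB3 had 4.09 at 8 h. Accessibility in B cell nuclei was thus above other nuclei at FCRLA, LMO2, PLD4 and, by less at 2 h and 4 h, CD55 and ID3. At ZBTB32 it was slightly above them at 2 h and 4 h and further above at 8 h (1.26). CMTM3, BATF and RETREG1 were close to other nuclei, and HOPX was below them at 4 h and 8 h (0.817 and 0.805). These ratios form a range and no cut-off was set. Genes on both sides of the mRNA difference were thus among those above other nuclei.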

How the data were processed

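The scRNA-seq tables hold raw UMI counts of 21861 genes per barcode as the authors deposited them, made with Cell Ranger on ARS-UCD1.2 (bosTau9) per the submitters' processing notes. The scATAC-seq tables hold deposited counts per gene and nucleus, and the sources used here do not say how a count came to be placed on a gene. Doublets were not called, and PPBP and, in 2 of the scATAC-seq tables, VPREB3 are not analysed here. Some genes of the lists are counted but not reported by name here.

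UMIs of the chosen cells were summed per library and scaled to CPM. Ratios were log2((CPM + 5)/(CPM + 5)) for genes with at least 50 UMIs over both libraries or groups, called past 2-fold. Printed ranges of ratios are exact 95% conditional binomial intervals of the plain CPM ratio, and shares have exact Clopper-Pearson intervals. Cells are not replicates and each treatment is 1 library, so no p-value is given. Groups within the CD83-low B cells were set by FCRLA and VPREB3, CD83-high B cells had 2 or more CD83 UMIs, T cells had CD3E and no MS4A1, CD79A, CD79B or CD14, and monocytes had CD14 and CSF1R and no MS4A1 or CD3E. Shares across depths were compared after thinning cells to 1500 UMIs.

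Members, the 20 gene lists and the rules were chosen with earlier results of these data known. Named were the genes of the rule and markers, per time the 10 called genes of 100 or more UMIs that rose, and the 10 that fell, most, the 15 largest steady differences from VPREB3-positive cells in each direction, and list members. Genes named for UMIs lying in 1 cell, and the 12 barcodes, were singled out after their values were seen. Alternatives changed the FCRLA, VPREB3, gene, UMI and mitochondrial limits, the pseudocount, the scaling and the cell weights. The ratio step was tested on simulated data. Used were python 3.11.15, numpy 2.4.6, scipy 1.17.1, pandas 2.3.3, R 4.3.3, and edgeR 4.0.16 and DESeq2 1.42.0 for scaling factors only.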

Additional observations from a re-analysis of the deposited data

Results flagged for a closer look

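In 3 genes the CPM levels of FCRLA-positive and VPREB3-positive cells moved in opposite directions after LPS. The difference was not tested because each condition is 1 library. The chemokine CCL4 had a 2 h log2 ratio of 2.18 in FCRLA-positive cells (30 to 108 UMIs) and of -0.59 in VPREB3-positive cells (60 to 22 UMIs), and without the 12 barcodes rich in chemokine UMIs the first value was 0.50. EAF2, a transcription elongation factor, had -1.12 (86 to 25 UMIs) against 0.64 (114 to 105 UMIs) at 2 h. JCHAIN, the joining chain of IgM and IgA, had -1.84 (280 to 51 UMIs) against 1.17 (590 to 774 UMIs) at 2 h and -1.38 (280 to 73 UMIs) against 1.96 (590 to 1260 UMIs) at 4 h, and 1 FCRLA-positive cell held 113 of the 280 UMIs without LPS. After thinning JCHAIN was seen in 11.4%, 4.68% and 4.32% of FCRLA-positive cells without LPS, at 2 h and at 4 h. The intervals were 7.49% to 16.3%, 2.04% to 9.01% and 1.6% to 9.16%. In VPREB3-positive cells the shares were 9.51% (6.46% to 13.4%), 6.71% (3.4% to 11.7%) and 7.35% (3.58% to 13.1%). At 8 h the shares were 3.45% of FCRLA-positive and 8.89% of VPREB3-positive cells. The intervals overlapped within each group, most in VPREB3-positive cells, where no change by cells can be read from these counts.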

How the results depend on the processing

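The share of FCRLA-positive cells among CD83-low B cells depended on how they were chosen. With at least 2 FCRLA UMIs it was 11.8%, 13.2%, 17.03% and 14.6%, with VPREB3 not used 52.4%, 48.1%, 52.7% and 55.9%, and with cells thinned to 1500 UMIs 15.7%, 14.9%, 13.1% and 17.3%. With no limit on CD83, tried only once the data had been looked at, it was 17.1% at 2 h and 18.1% at 4 h. Genes past 2-fold at 2 h numbered 36 with at least 2 FCRLA UMIs, 131 with no limit on CD83, 272 with no minimum on UMIs and 31 without the 12 barcodes. At 4 h they numbered 172 with no limit on CD83 and 374 with no minimum on UMIs, and at 8 h 676 with no minimum. The NF-kB median at 2 h ranged from 0.52 without the 12 barcodes to 1.43 with no limit on CD83, and the interferon median at 4 h from 1.91 to 2.16 over the other alternatives, with 1.59 over the genes counted at all 3 times, a set added after the data were seen. Against VPREB3-positive cells, higher genes numbered 66 from 20 UMIs (32 shared) and 51 with cells scaled to the same total (31 shared), and lower genes 26 with no upper limit on genes (2 shared), 11 with no limit on CD83 (6 shared) and 13 from 20 UMIs (6 shared).

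Leaving out the highest cell of each gene, likewise tried after the values were known, turned PTX3 to -0.012, CCL3 to -0.40 and CCL4 to -0.21 at 4 h, and CXCL8 to -1.18, CXCL3 to -0.013, GRO1 to -1.12 and FABP5 to -0.017 at 8 h. Leaving out the 12 barcodes turned CXCL2 to -0.069 at 2 h, and CXCL3 to -0.067 and GRO1 to -0.60 at 8 h. Both alternatives remove cells rich in these UMIs by construction, and the cause of the other shifts was not tested. No gene ratio against VPREB3-positive cells changed direction among 333 recomputed. No paired analysis was possible because each condition is 1 library with the same replicate number. Depth limits genes of low level most at 8 h, where 59 cells gave 435189 UMIs.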
